A study of Homo sapiens with 32 samples.

Results

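The genes described here are 8 parts of the machinery that starts and restrains caspase activation: the death receptors TNFRSF10A and TNFRSF10B, the adaptor FADD, the initiator caspases CASP8, CASP10 and CASP9, and the inhibitors CFLAR and XIAP. They were taken by gene symbol from the deposited expression table and are 8 of its 24249 genes. All 8 lay above the filter on low values. RNA of the human myeloma line MM.1S was sequenced after 4 treatments, and every library came from this line. In each treatment cells received a pulse of 1 h, either with DMSO as solvent control or with carfilzomib (Cfz), which inhibits the proteasome, followed by 12 h in fresh medium. The DMSO group (3 libraries) had DMSO in both steps, the ATRA group (3 libraries) had a DMSO pulse and then 10 µM all-trans retinoic acid, a form of vitamin A and ligand of nuclear receptors, the Cfz group (1 library) had a Cfz pulse and then DMSO, and the ATRA+Cfz group (1 library) had a Cfz pulse and then ATRA. The sources used here do not give the Cfz dose.

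Caspases are proteases that are made as inactive precursors and cut other proteins, each other included, once a cell is committed to apoptosis. In the extrinsic route the ligand TRAIL binds the receptors encoded by TNFRSF10A and TNFRSF10B, FADD joins the clustered receptor tails to CASP8 and CASP10, and CFLAR, which resembles these caspases but lacks their activity, can take their place in the complex. In the intrinsic route cytochrome c released from mitochondria assembles with APAF1 and CASP9, while XIAP binds and blocks CASP9 and the effector caspases. Both routes are studied in myeloma as ways by which proteasome inhibitors kill the cells.

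The sequence before the start of 3 members that were higher with ATRA is shown from RefSeq (GRCh38.p14). They are an initiator caspase of each route and the inhibitor of CASP9. The stretches shown are only part of the DNA in which motifs were searched. Each is the stretch before the most upstream RefSeq start of the gene that holds no exon of GENCODE release 29, written 5′ to 3′ along the gene's strand. CASP9 is chr1:15524890-15525040 on the minus strand, CASP8 is chr2:201233213-201233442 on the plus strand, and XIAP is chrX:123859458-123859707 on the plus strand.
CASP9: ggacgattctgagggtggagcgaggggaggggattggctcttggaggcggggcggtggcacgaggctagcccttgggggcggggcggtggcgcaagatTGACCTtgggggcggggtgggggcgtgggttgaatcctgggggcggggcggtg
CASP8: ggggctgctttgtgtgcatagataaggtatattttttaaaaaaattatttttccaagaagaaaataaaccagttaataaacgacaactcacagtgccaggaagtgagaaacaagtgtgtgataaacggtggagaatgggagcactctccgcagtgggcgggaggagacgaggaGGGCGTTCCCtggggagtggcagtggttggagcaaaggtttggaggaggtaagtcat
XIAP: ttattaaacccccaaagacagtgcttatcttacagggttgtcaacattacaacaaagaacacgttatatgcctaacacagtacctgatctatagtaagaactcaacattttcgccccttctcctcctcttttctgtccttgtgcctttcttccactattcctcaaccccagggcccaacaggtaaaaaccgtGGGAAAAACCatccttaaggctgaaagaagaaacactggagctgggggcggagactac
Capitals mark matches on either strand to the searched motifs other than the GC box. In CASP9 this is a single AGGTCA on the opposite strand, the unit of a retinoic acid receptor repeat and not the repeat itself. In CASP8 and XIAP it is the NF-kB core (GGGA, any 4 bases, CC). RefSeq gave 13 windows of 250 bases before a start for 5 members (CASP8, CASP9, CFLAR, FADD and XIAP). All 250 bases were searched, exon bases included, so some matches lie outside the stretches shown. None of the 13 windows belongs to CASP10, TNFRSF10A or TNFRSF10B, so the counts cover only members that rose with ATRA. AGGTCA stood in 3 of the 13 windows, all of CASP9 or XIAP, and in 12.1% of 35116 promoter windows of the same length. The NF-kB core stood in 4 of 13 and in 22.6%. The antioxidant response core TGACNNNGC stood in 2 of 13 windows (10.9% of all) and the heat shock core GAANNTTC in 2 (5.78% of all). The interferon response core (GAAA, any 2 bases, GAAA) stood in none of the 13 (3.02% of all), and neither did a direct repeat of AGGTCA with a spacer of 5 bases, which overlaps the single motif. The GC box GGGCGG stood in 8 of 13 windows and in 42.6% of all windows. Windows of 1 gene can overlap: the 4 windows with an NF-kB core hold 3 separate matches, since a pair of XIAP windows shares 1. In XIAP 1 of the AGGTCA matches lies within a TGACNNNGC match. These matches describe letters in a window, not sites.

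Depth was 14136937 to 17155331 reads per library, and levels are given in FPM, fragments scaled to a common library total, without a correction for transcript length. They are therefore compared between treatments and not between genes. All 9 plasma cell markers listed were above 10 FPM, with a summed level of 8051 to 11087 FPM per library, while the summed myeloid, stromal and epithelial markers were at most 2.19, 2.55 and 3.67 FPM. Of the T and NK cell markers, NCAM1 was at 7.08 to 15.2 FPM and CD3E at most 1.54 FPM. The DMSO 3 library stood apart, with 5.85% of its reads from mitochondrially encoded genes against 4.12% and 4.09% in DMSO 1 and 2 and 3.67% to 3.89% with ATRA. That share was 5.43% with Cfz and 5.72% with ATRA+Cfz, and its part in the results was not tested. RNA was taken from whole cultures, so fewer cells of a kind and less RNA per cell cannot be told apart. The labels do not say that libraries of a group came from separate cultures, so the spread that the p-values rest on is that among libraries and could be technical.

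With ATRA, 7 of the 8 genes changed, with a Benjamini-Hochberg adjusted p under 0.05 in limma, the rule used for every call. FADD, CASP8, CASP9, CFLAR and XIAP rose, CASP10 and TNFRSF10B fell, and TNFRSF10A did not pass the test. Among all 15827 genes tested, 48.7% were called in this comparison, 21.3% higher and 27.4% lower, so a change with ATRA was common. With a filter at 2 FPM, which all 8 genes pass, 7201 of 12211 genes were called. Over all 15827 genes, higher calls made up 43.7% of the calls. That share was 49.6% with median-ratio scaling, 48.4% with edgeR and 48.8% with DESeq2. The median log2 fold change was 0.28 over the 8 genes and -0.03 over all genes. In these same 7 genes the 3 ATRA libraries did not overlap the 3 DMSO libraries, which held for 56.6% of all genes, 25.5% higher and 31.1% lower. Without DMSO 3 the same count of 7 genes was called, 5 higher and 2 lower.

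With Cfz alone, 4 of the 8 genes changed: TNFRSF10A, FADD and CASP8 rose and CASP10 fell, against 24.9% of all genes called, 7.94% higher and 17.0% lower. The median log2 fold change of the 8 genes was 0.01, against -0.08 over all genes. Cfz and ATRA+Cfz had 1 library each. They were assumed to vary like the DMSO and ATRA libraries and have no replicate check. Leaving out a library keeps the fold changes of comparisons that do not use it, and alters only the spread and adjustment in the test. Over all genes, higher calls made up 31.8% of the calls with Cfz, but 46.3% with median-ratio scaling, 42.2% with edgeR and 53.1% with DESeq2. Without DMSO 3 the log2 fold change with Cfz was -0.43 for CASP9 and -0.18 for XIAP, against -0.38 and -0.10 with all libraries.

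In ATRA+Cfz against DMSO all 8 genes changed, 6 higher and 2 lower (50.6% of all genes called, 20.0% higher and 30.5% lower). The median was 0.48 over the 8 genes and -0.05 over all genes. The comparisons with DMSO share the 3 DMSO libraries, so their values stand side by side and are not independent. The plot of levels by library shows each of the 8 genes on its own scale.

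**Figure D1:**
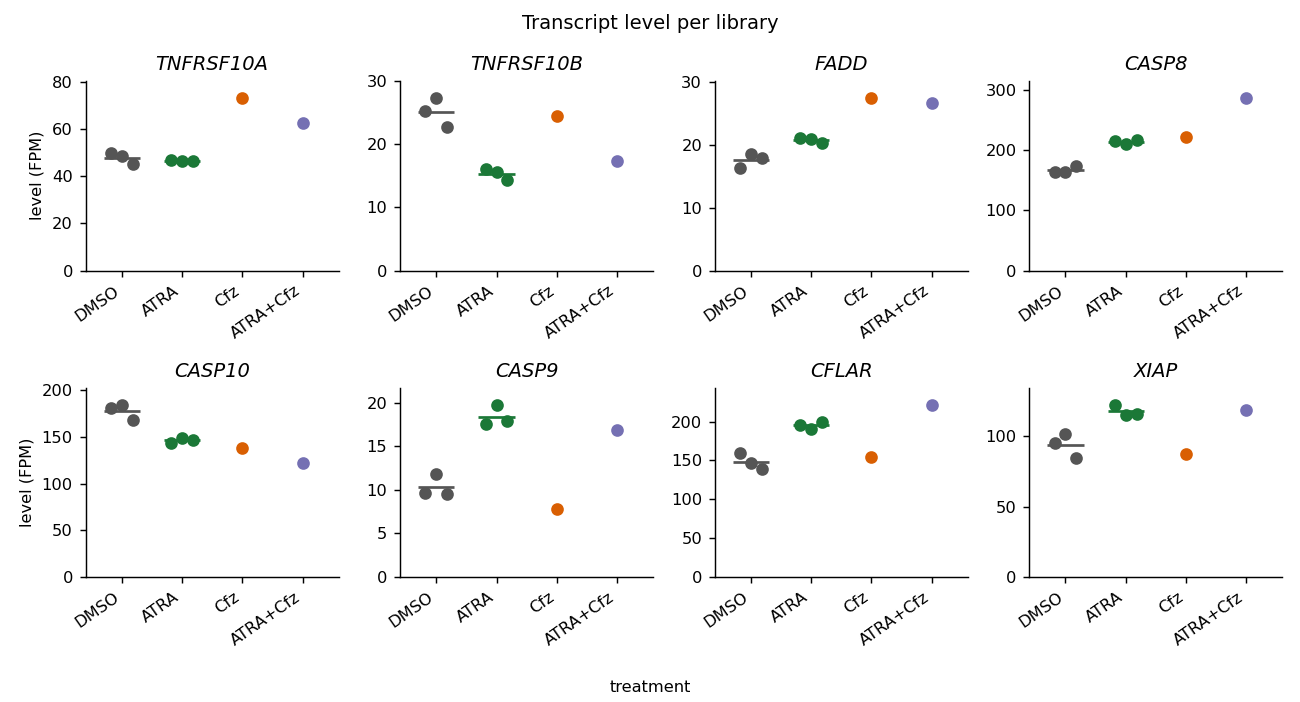
Level in FPM (vertical axis, from 0) of the 8 genes by treatment (horizontal axis); each point is 1 library and a horizontal line is the mean of 3 libraries. The ATRA points lie apart from the DMSO points for every gene except TNFRSF10A, and CASP8 is highest, at 286 FPM, in ATRA+Cfz.

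The plot of fold changes sets the 3 treatments against DMSO for each gene with 95% intervals. Fold changes are on the scale of log2(FPM + 0.5), which understates the change of low genes.

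**Figure D2:**
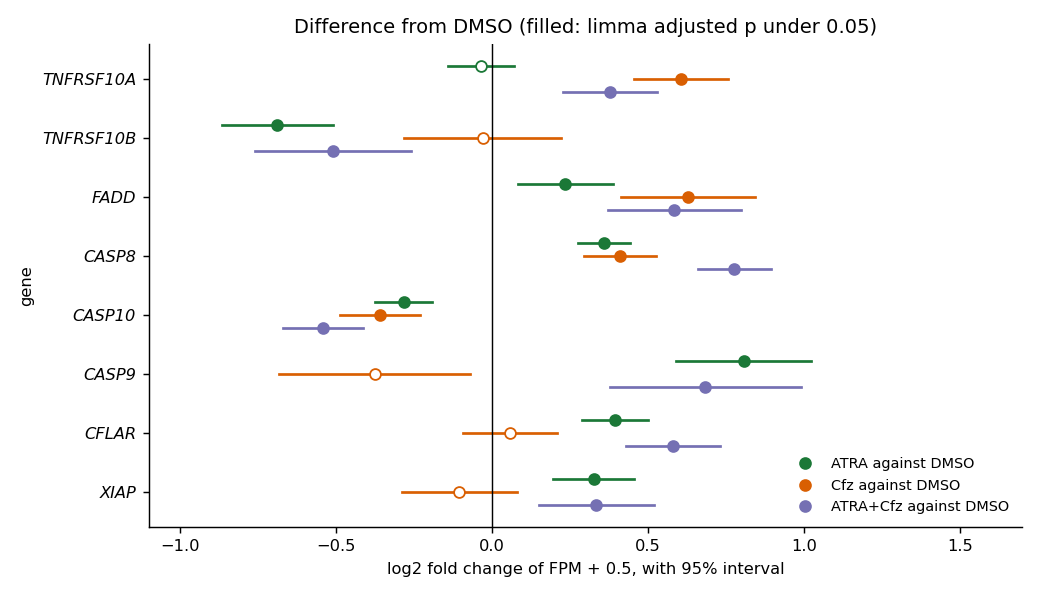
Log2 fold change of FPM + 0.5 against DMSO (horizontal axis) for the 8 genes (vertical axis), with 95% intervals from limma; filled points passed an adjusted p of 0.05 and open points did not. CASP8 is to the right of 0 and CASP10 to the left of it under all 3 treatments, and TNFRSF10B is to the left under ATRA (-0.69) and ATRA+Cfz (-0.51).

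The receptor genes TNFRSF10A and TNFRSF10B, which encode the TRAIL receptors DR4 and DR5, moved under different treatments. TNFRSF10A (ENSG00000104689) was at 49.8, 48.6 and 45.1 FPM in DMSO 1 to 3 and at 46.8, 46.5 and 46.6 FPM in ATRA 1 to 3. It was at 73.1 FPM with Cfz (95% Wilson interval 68.9 to 77.5) and at 62.4 FPM with ATRA+Cfz (58.4 to 66.6). Such intervals cover counting error only. The DMSO and ATRA libraries overlapped, and both libraries with Cfz were above all of them. The log2 fold change with ATRA was -0.04 ± 0.05 (SE), with an interval of -0.14 to 0.07 and an adjusted p of 0.58 in limma, and its direction flipped to 0.0019 with median-ratio scaling. With Cfz it was 0.61 ± 0.07, or 1.52-fold (limma adjusted p = 0.00012), and ATRA+Cfz was 0.42 ± 0.07 above ATRA (0.00091). The level in ATRA+Cfz was below that in Cfz by a difference that did not pass the test (-0.23 ± 0.08, limma adjusted p = 0.062, or 0.011 without DMSO 3).

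TNFRSF10B (ENSG00000120889) moved with ATRA. It was at 25.2, 27.3 and 22.7 FPM in DMSO 1 to 3, at 16.1, 15.7 and 14.3 FPM in ATRA 1 to 3, at 24.5 FPM with Cfz (22.1 to 27.1) and at 17.4 FPM with ATRA+Cfz (15.4 to 19.7). All libraries with ATRA, alone or after Cfz, were below all those without it. The level fell by 0.69 ± 0.08 on the log2 scale with ATRA, to 0.621 times that in DMSO (limma adjusted p = 2.6e-05). Cfz alone differed from DMSO by -0.03 (interval -0.28 to 0.22, limma adjusted p = 0.88), a sign that flipped to 0.03 with median-ratio scaling, to 0.0033 with edgeR and to 0.02 with DESeq2. After Cfz, ATRA gave -0.48 ± 0.14 (limma adjusted p = 0.023), which DESeq2 did not call (adjusted p = 0.1). ATRA+Cfz stood 0.18 above ATRA (interval -0.07 to 0.43, limma adjusted p = 0.27), which did not pass the test.

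Some reads of the receptors may be shared with genes on the opposite strand, since no source used here gives the strand setting of the counting. In GENCODE release 29, 67 exon bases of TNFRSF10B (1.30% of its exons) overlap RHOBTB2. RHOBTB2 moved in the same direction with ATRA, from 21.4 to 9.60 FPM, a log2 fold change of -1.12 (limma adjusted p = 3.7e-06), and was at 17.5 FPM with Cfz and 6.08 FPM with ATRA+Cfz. For TNFRSF10A the overlap with TNFRSF10A-AS1 is 224 bases (7.59% of its exons), and that antisense gene was at 3.71 to 6.82 FPM. Another gene on the opposite strand of TNFRSF10A, AC100861.1, overlaps 266 bases (9.01% of its exons) and was not analysed here. The part of these overlaps in the receptor values was not tested.

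FADD (ENSG00000168040), the adaptor that carries initiator caspases to the receptors, was highest in the libraries with Cfz. It was at 16.2, 18.5 and 17.9 FPM in DMSO 1 to 3, at 21.0, 20.9 and 20.3 FPM in ATRA 1 to 3, at 27.4 FPM with Cfz (24.8 to 30.1) and at 26.5 FPM with ATRA+Cfz (24.0 to 29.4). The lowest ATRA library was above the highest DMSO library. The rise with ATRA was 0.24 ± 0.07 (limma adjusted p = 0.014), the smallest among the 7 genes called, and it was not called by DESeq2 (adjusted p = 0.06) or by limma without DMSO 1 (0.057). With Cfz the rise was 0.63 ± 0.10, or 1.55-fold (limma adjusted p = 0.00091). After Cfz, ATRA gave -0.04 with an interval of -0.31 to 0.22, which did not pass the test (limma adjusted p = 0.82). ATRA+Cfz was 0.35 ± 0.10 above ATRA (limma adjusted p = 0.018), which DESeq2 did not call (adjusted p = 0.081). On the opposite strand another annotated gene, AP000879.1, covers 54.9% of the FADD exon bases. It was not analysed here, so the FADD values are uncertain.

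CASP8 (ENSG00000064012), the initiator caspase of the receptor route, rose under every treatment. It was at 163, 163 and 174 FPM in DMSO 1 to 3, at 215, 209 and 217 FPM in ATRA 1 to 3, at 222 FPM with Cfz (214 to 229) and at 286 FPM with ATRA+Cfz (277 to 295). The ATRA+Cfz library was the highest of the 8, and the Cfz library lay above the ATRA libraries by less than its counting interval. The log2 fold change against DMSO was 0.36 ± 0.04 with ATRA (limma adjusted p = 9.7e-06), 0.41 ± 0.05 with Cfz (0.00028) and 0.78 ± 0.05, or 1.71-fold, with ATRA+Cfz (2.9e-07). ATRA+Cfz was also above Cfz by 0.37 ± 0.06 (limma adjusted p = 0.0013) and above ATRA by 0.42 ± 0.05 (0.00018).

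CASP10 (ENSG00000003400), a close relative of CASP8 that is recruited by the same adaptor, went the other way. It was at 182, 185 and 168 FPM in DMSO 1 to 3, at 143, 149 and 147 FPM in ATRA 1 to 3, at 139 FPM with Cfz (133 to 145) and at 122 FPM with ATRA+Cfz (117 to 128). All DMSO libraries were above all others, and ATRA+Cfz was the lowest. The level fell by 0.28 ± 0.04 on the log2 scale with ATRA (limma adjusted p = 0.00015), by 0.36 ± 0.06 with Cfz (0.0013) and by 0.54 ± 0.06 with ATRA+Cfz (1.3e-05). ATRA+Cfz was lower than ATRA by a log2 difference of -0.26 ± 0.06 (limma adjusted p = 0.0061). Against Cfz the difference of -0.18 ± 0.07 did not pass the test (limma adjusted p = 0.078), but did without DMSO 3 (0.0045).

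CASP9 (ENSG00000132906), the initiator of the intrinsic route, had the largest rise of the 8 genes with ATRA and the fewest reads, 119 to 284 per library. It was at 9.68, 11.8 and 9.50 FPM in DMSO 1 to 3, at 17.6, 19.8 and 17.8 FPM in ATRA 1 to 3, at 7.81 FPM with Cfz (6.52 to 9.34) and at 16.8 FPM with ATRA+Cfz (14.8 to 19.1). The Cfz library was the lowest, and every library with ATRA was above every library without it. The rise with ATRA was 0.81 ± 0.10, or 1.75-fold (limma adjusted p = 3.4e-05), and after Cfz it was 1.06 ± 0.17, or 2.09-fold (0.00066). Cfz alone gave -0.38 ± 0.14, which missed the threshold (limma adjusted p = 0.071) and passed it without DMSO 3 (-0.43, adjusted p = 0.018). ATRA+Cfz and ATRA differed by -0.12 (interval -0.43 to 0.18, limma adjusted p = 0.55).

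CFLAR (ENSG00000003402), the inhibitor that competes with CASP8 for the receptor complex, rose with ATRA with or without Cfz. It was at 159.7, 146 and 139 FPM in DMSO 1 to 3, at 196, 190.2 and 199 FPM in ATRA 1 to 3, at 154 FPM with Cfz (148 to 161) and at 222 FPM with ATRA+Cfz (214 to 229.5). The Cfz library lay within the DMSO range, and the ATRA+Cfz library was above all 3 ATRA libraries. The rise with ATRA was 0.40 ± 0.05, or 1.32-fold (limma adjusted p = 3.5e-05), and after Cfz 0.52 ± 0.08, or 1.44-fold (0.00066). Cfz alone gave 0.06, with an interval of -0.09 to 0.21 (limma adjusted p = 0.58). ATRA+Cfz exceeded ATRA by 0.18 ± 0.07, which missed the threshold (limma adjusted p = 0.062) and was called by edgeR (0.018), by DESeq2 (0.043), with median-ratio scaling (0.026) and without DMSO 1 (0.024) or DMSO 3 (0.0035). The antisense gene CFLAR-AS1 shares 777 bases with CFLAR (3.45% of its exons) and was at 0.394 to 1.13 FPM. IMPDH1P10 on the opposite strand shares 1488 bases (6.60%) and AC007283.1 on the same strand 445 bases (1.98%), and neither was analysed here.

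XIAP (ENSG00000101966), the direct inhibitor of CASP9 and of effector caspases, was higher in all 4 libraries with ATRA. It was at 95.5, 102 and 85.0 FPM in DMSO 1 to 3, at 123, 115 and 116 FPM in ATRA 1 to 3, at 87.3 FPM with Cfz (82.7 to 92.1) and at 119 FPM with ATRA+Cfz (113 to 124). The ATRA+Cfz library lay within the ATRA range, and the Cfz library within the DMSO range. The rise was 0.33 ± 0.06, or 1.25-fold, with ATRA (limma adjusted p = 0.00075) and 0.44 ± 0.10 with ATRA after Cfz (0.0073). Cfz alone gave -0.10 (interval -0.29 to 0.08, limma adjusted p = 0.41), or -0.18 and an adjusted p of 0.015 without DMSO 3. ATRA+Cfz and ATRA differed by 0.01 (interval -0.18 to 0.19, limma adjusted p = 0.95).

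By comparison, ATRA after Cfz changed 5 of the 8 genes, CASP8, CASP9, CFLAR and XIAP higher and TNFRSF10B lower, against 30.4% of all genes called, 12.8% higher and 17.6% lower. Without DMSO 3, which this comparison does not use, the log2 differences of CASP10 (-0.18) and TNFRSF10A (-0.23) stayed the same. Only the spread and the adjustment in the test changed. The medians were 0.16 over the 8 genes and 0.00 over all genes. Cfz before ATRA, taken as ATRA+Cfz against ATRA, changed 4 genes, TNFRSF10A, FADD and CASP8 higher and CASP10 lower, against 30.9% of all genes called, 10.6% higher and 20.2% lower. The medians were 0.18 and -0.04. Over all genes the higher share of the calls in this last comparison was 34.4%, or 45.3% with edgeR.

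Whether ATRA acted differently after Cfz was tested as an interaction, the log2 difference made by ATRA in Cfz-pulsed cells less that in cells without Cfz. None of the 8 genes was called by limma, none had an unadjusted p under 0.05, and edgeR and DESeq2 called none either, while 2.30% of all genes were called by limma, 0.992% higher and 1.31% lower. For CASP8 the interaction was 0.01, with an interval of -0.16 to 0.17, and its sign flipped to -0.02 with median-ratio scaling and with DESeq2. The log2 rises of CASP8 with ATRA, with Cfz and with both were 0.36, 0.41 and 0.78. FADD had an interaction of -0.28 (interval -0.58 to 0.02, limma adjusted p = 0.32) and TNFRSF10A of -0.19 (-0.40 to 0.02, 0.33). For CASP9 it was 0.25 with the widest interval, -0.18 to 0.69 (limma adjusted p = 0.54). A p that misses the threshold does not show that ATRA acted alike with and without Cfz. The share of interaction calls that were higher over all genes was 43.1%, or 27.4% with median-ratio scaling and 22.6% with DESeq2. The count of 364 genes called was 1985 without DMSO 3, 240 and 164 without DMSO 1 and 2, and 2, 8 and 35 without ATRA 1 to 3, and none of the 8 genes was called in any of these.

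Because the balance of partners matters in this pathway, 4 ratios of FPM were computed within each library. A ratio does not depend on the scaling of its library, and its size depends on transcript length, so only its change between libraries is described, without a test. CASP10 over CASP8 was 1.12, 1.13 and 0.967 in DMSO 1 to 3, 0.666, 0.710 and 0.677 in ATRA 1 to 3, 0.626 with Cfz and 0.427 with ATRA+Cfz. The ratio was lower in all treated libraries than in all controls, and the mean log2 difference of ATRA from DMSO was -0.64. TNFRSF10B over TNFRSF10A was 0.506, 0.561 and 0.503 in DMSO, 0.343, 0.337 and 0.307 in ATRA, 0.335 with Cfz and 0.279 with ATRA+Cfz. This ratio was also lower in all treated libraries, through the fall of TNFRSF10B with ATRA and through the rise of TNFRSF10A with Cfz.

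The ratios of an inhibitor to its caspase behaved differently from each other. CFLAR over CASP8 was 0.981, 0.896 and 0.799 in DMSO and 0.909, 0.908 and 0.918 in ATRA, so the groups overlapped, with a mean log2 difference of 0.04 that ran from -0.04 to 0.11 when 1 library was left out. It was 0.696 with Cfz and 0.776 with ATRA+Cfz, both below every other library. XIAP over CASP9 was 9.86, 8.62 and 8.95 in DMSO and 6.97, 5.83 and 6.49 in ATRA, a mean log2 difference of -0.51. It was 11.2 with Cfz, the highest of all libraries, and 7.05 with ATRA+Cfz.

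**Figure D3:**
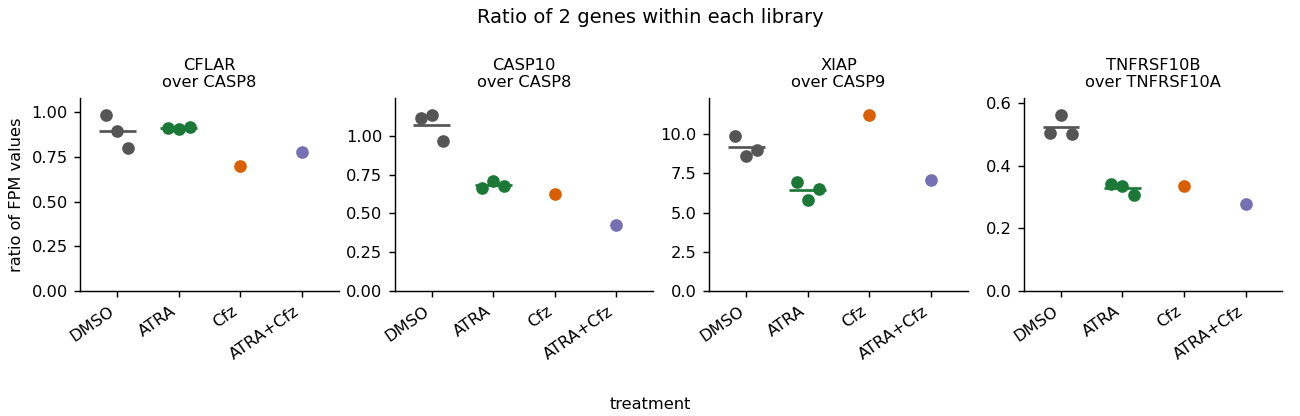
Ratio of the FPM values of 2 genes (vertical axes, from 0) by treatment (horizontal axis); each point is 1 library and a horizontal line is the mean of 3 libraries. CASP10 over CASP8 falls from a highest value of 1.13 in DMSO to 0.427 in ATRA+Cfz, while CFLAR over CASP8 overlaps between DMSO and ATRA.

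Other genes of the pathway were taken from 13 lists by role, which hold 62 genes besides the 8, and 48 of these were tested. With ATRA 9 of the 48 rose and 20 fell, where 21.3% of all genes rose and 27.4% fell, with a median log2 fold change of -0.08, against -0.03 over all genes. With Cfz 5 rose and 11 fell (7.94% and 17.0% of all genes). In ATRA+Cfz 7 rose and 19 fell against DMSO (20.0% and 30.5% of all genes). Against Cfz 4 rose and 16 fell (12.8% and 17.6% of all genes), and against ATRA 7 rose and 16 fell (10.6% and 20.2% of all genes). In the interaction limma called none of the 48 (12 had an unadjusted p under 0.05, as did 18.1% of all genes), or 9 without DMSO 3. DESeq2 called 9 of the 48 with Cfz, against 16 in limma, and 14 in ATRA+Cfz against ATRA, against 23. Calls over all 15827 genes were also fewer in DESeq2, 2013 against 3948 and 2886 against 4884.

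**Figure D4:**
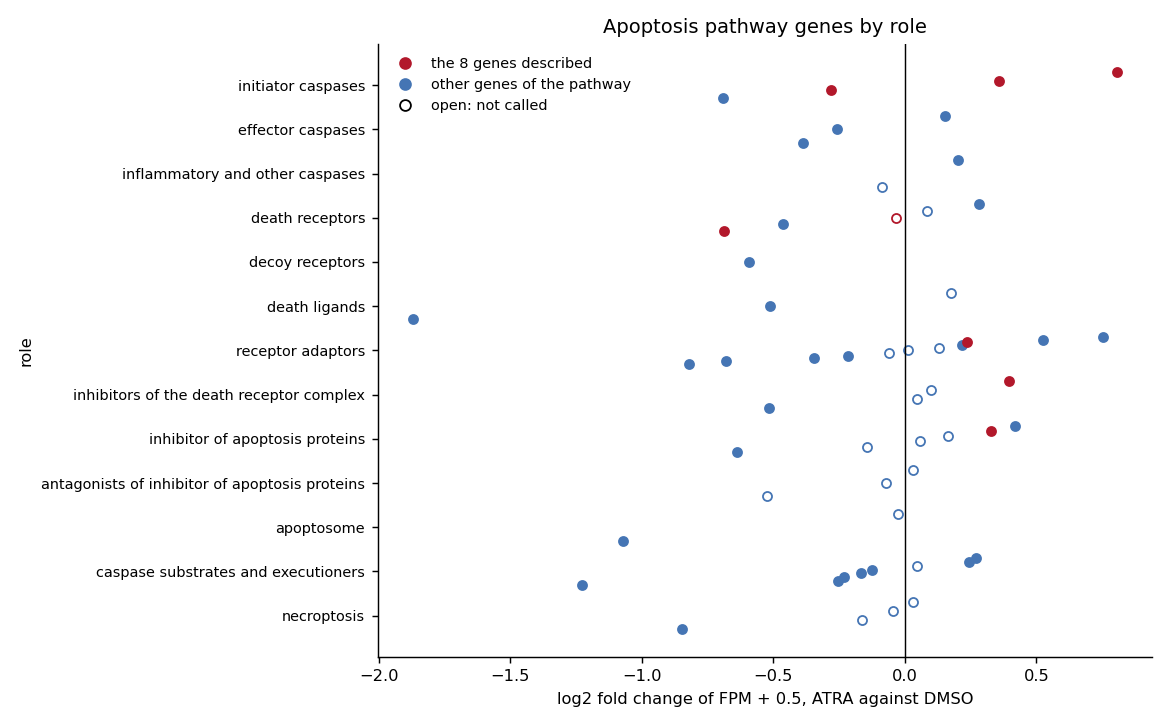
Log2 fold change of FPM + 0.5, ATRA against DMSO (horizontal axis), of each tested pathway gene by role (vertical axis); red points are the 8 genes described, blue points the others, and open points did not pass an adjusted p of 0.05 in limma. The lowest point is the ligand TNFSF15 at -1.87, and the initiator caspases lie on both sides of 0.

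The plot of pathway genes by role shows both directions within most lists. The initiator list has 1 gene besides the 3 members, CASP2, which is activated with the adaptor PIDD1. CASP2 fell from 171 ± 13.2 FPM (SD, n = 3) to 105 ± 4.87 FPM with ATRA, a log2 fold change of -0.69 (limma adjusted p = 1e-06), was at 129.8 FPM with Cfz (-0.39, 0.0039) and fell further after Cfz with ATRA, to 77.9 FPM (-0.73, 0.00015). PIDD1 fell from 22.5 to 12.5 FPM with ATRA (-0.82, limma adjusted p = 4e-06), to 12.9 FPM with Cfz (-0.77, 0.00049) and to 6.30 FPM with ATRA+Cfz, below Cfz by a log2 difference of -0.98 (0.0002). CRADD, from the same list of adaptors as PIDD1, instead rose with ATRA, from 9.96 to 14.5 FPM (0.52, limma adjusted p = 0.00024). It was at 8.60 FPM with Cfz and 11.1 FPM with ATRA+Cfz.

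Of the effector caspases, the proteases that act after the initiators, CASP6 fell from 29.4 to 22.4 FPM with ATRA (-0.39, limma adjusted p = 0.0016). Of the inflammatory caspases, CASP4, which senses bacterial lipopolysaccharide, rose from 41.2 to 65.1 FPM with Cfz (0.66, limma adjusted p = 0.00019). Its rise with ATRA to 47.5 FPM (0.20, limma adjusted p = 0.011) was lost without ATRA 3 (adjusted p = 0.057).

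Of the 3 tested death receptors besides the members, FAS rose from 25.3 to 30.9 FPM with ATRA (0.28, limma adjusted p = 0.0016) and to 39.4 FPM with Cfz (0.63, 0.00028). It is the receptor of FAS ligand and also binds FADD. TNFRSF1A, a receptor of tumor necrosis factor, was at 52.9 FPM in DMSO and 56.0 FPM in ATRA (0.08, limma adjusted p = 0.21, or 0.13 and 0.025 without DMSO 3). With Cfz TNFRSF1A was at 58.9 FPM, and with ATRA+Cfz at 46.0 FPM, a log2 difference of -0.35 from Cfz. TNFRSF21, an orphan death receptor, fell from 3.72 to 2.57 FPM with ATRA (-0.46, limma adjusted p = 0.022). DESeq2 did not call this fall (adjusted p = 0.21), nor did limma without DMSO 2 (0.082), ATRA 2 (0.071) or ATRA 3 (0.062). TNFRSF21 was at 2.425 FPM with Cfz and at 0.637 FPM with ATRA+Cfz, a log2 difference of -1.36 from Cfz. The decoy receptor TNFRSF10D, which binds TRAIL without a complete death domain, fell from 4.53 to 2.84 FPM with ATRA (-0.59, limma adjusted p = 0.0042), which DESeq2 did not call (adjusted p = 0.066). TNFRSF10C was not analysed here.

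Of the 3 tested ligands, TNFSF10, which encodes TRAIL, fell from 8.05 ± 0.858 to 5.48 ± 0.276 FPM (SD, n = 3) with ATRA (-0.51, limma adjusted p = 0.0027). After Cfz it was at 9.38 FPM without and 5.37 FPM with ATRA (-0.75, limma adjusted p = 0.013), which DESeq2 did not call (adjusted p = 0.095). TNFSF15, a ligand of another death receptor, fell from 3.37 to 0.567 FPM with ATRA (-1.87, limma adjusted p = 4.3e-06). FASLG and TNF were not analysed here.

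Among 10 adaptors besides FADD, TRADD, the adaptor of TNFRSF1A, rose from 14.5 to 24.7 FPM with ATRA (0.75, limma adjusted p = 1.2e-05). CASP8AP2, a large nuclear protein named for its binding to CASP8 that also has a role in histone gene expression, fell from 104 to 64.6 FPM with ATRA (-0.68, limma adjusted p = 1.4e-07). RIPK1, a kinase that links receptors to survival or death, was at 48.5 and 46.5 FPM (-0.06, limma adjusted p = 0.36). In all, 4 of the 11 adaptors with FADD included rose with ATRA and 4 fell (21.3% and 27.4% of all genes). With Cfz, DEDD2 rose to 34.4 FPM (0.40, limma adjusted p = 0.0026).

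Of the other inhibitors, PEA15, a death effector domain protein that binds FADD and CASP8, fell from 139 to 97.0 FPM with ATRA (-0.52, limma adjusted p = 1.1e-06). It was also lower with ATRA after Cfz (-0.76, limma adjusted p = 1.4e-05), and was thus opposite to CFLAR. BIRC3, a ubiquitin ligase at the receptor complexes, rose from 233 to 311 FPM with ATRA (0.42, limma adjusted p = 2.2e-06), to 267 FPM with Cfz (0.20, 0.015) and to 386 FPM with ATRA+Cfz, 0.53 above Cfz (8.1e-05). Its relative BIRC2 was at 82.6 and 85.9 FPM with DMSO and ATRA (0.06, limma adjusted p = 0.26). After Cfz, BIRC2 was at 73.8 FPM without and 89.8 FPM with ATRA, a log2 difference of 0.28. BIRC5, known as survivin and made mainly in dividing cells, fell from 109 to 69.9 FPM with ATRA (-0.64, limma adjusted p = 9e-06).

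APAF1, the scaffold on which CASP9 is activated, moved against CASP9 with ATRA. It fell from 10.8 ± 0.313 to 4.89 ± 0.0931 FPM (SD, n = 3), a log2 fold change of -1.07 (limma adjusted p = 4.9e-06). With Cfz it was at 5.77 FPM (-0.85, limma adjusted p = 0.0016) and with ATRA+Cfz at 2.83 FPM, below Cfz by a log2 difference of -0.91 (0.0025). CYCS, which encodes cytochrome c, was at 470.2 and 461 FPM with DMSO and ATRA (-0.03, limma adjusted p = 0.58, a sign that flipped to 0.01 with median-ratio scaling and with DESeq2 and to 0.0036 with edgeR) and fell with Cfz to 359.7 FPM (-0.39, 0.00035). DIABLO, a mitochondrial antagonist of XIAP, was at 16.1 and 16.4 FPM with DMSO and ATRA (0.03, limma adjusted p = 0.78).

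Of the 8 caspase substrates and executioners, 2 rose and 5 fell with ATRA (21.3% and 27.4% of all genes). BID, which carries the signal of CASP8 to mitochondria, rose from 47.0 to 55.7 FPM (0.24, limma adjusted p = 0.0014), and DFFA, the inhibitor of the apoptotic nuclease, from 75.0 to 90.5 FPM (0.27, 0.00024). GSDME, a pore-forming protein cut by caspases, fell from 2.63 to 0.850 FPM (-1.23, limma adjusted p = 0.0002), and ROCK1, a kinase cut by caspases, from 225 to 191 FPM (-0.23, 0.00054). Of 4 necroptosis genes 1 changed, RIPK3, which fell from 4.97 to 2.53 FPM (-0.85, limma adjusted p = 0.00029).

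CFLAR, CASP10 and CASP8 are neighbours in the RefSeq gene order, and their different directions with ATRA were set beside those of the genes around them. These genes were chosen by position. In that order, ORC2 had a log2 fold change of 0.03 with ATRA (limma adjusted p = 0.55), FAM126B of 0.12 (0.043) and NDUFB3 of 0.18 (0.0034). The FAM126B call was lost without DMSO 1 (0.054), DMSO 3 (0.065), ATRA 1 (0.057), ATRA 2 (0.12) or ATRA 3 (0.15). Then came CFLAR at 0.40, CASP10 at -0.28 and CASP8 at 0.36, so that the middle gene of the cluster fell between 2 that rose. Beyond them, FLACC1 was at 0.68 (limma adjusted p = 0.01) from a low level of 0.583 FPM, not called by DESeq2 (0.1), TRAK2 at 0.17 (0.0051) and STRADB at -0.24 (0.018). The STRADB call was lost in DESeq2 (adjusted p = 0.16) and in limma without DMSO 2 (0.056), ATRA 1 (0.068) or ATRA 2 (0.085).

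Other genes of the table had patterns like those of the members, measured by the root mean square difference of log2(FPM + 0.5) from the DMSO mean over the 8 libraries among 12197 genes of at least 2 FPM. NAA25 was nearest to CASP8 (0.0265), followed by FASTKD5 and ZNF583. CASP9 had the fewest genes within 0.1, namely 3: ITPR1 (0.091), EDEM3 and GREB1. CASP10 had the most, 318, with ZCCHC3 (0.0301), CDK5RAP3 and USP22 first. For the receptors these were ZBTB7B (0.0464), VASP and DHDDS beside TNFRSF10A, with 29 genes within 0.1, and GTF2A1 (0.0584), BCL9 and PON2 beside TNFRSF10B, with 21. FADD was nearest to MPHOSPH10 (0.0608), TRAFD1 and ANKEF1, CFLAR to DUXAP8 (0.0424), EVI2B and ITFG1, and XIAP to LRBA (0.0394), SLC7A1 and CHST15. Of these, EDEM3 was at 338 FPM in DMSO, 577 in ATRA, 258 in Cfz and 506 in ATRA+Cfz. These likenesses are descriptions over 8 libraries, carry no test and say nothing of shared function.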

How the data were processed

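For each of 32 lanes, 4 per library, the authors deposited FPM, a CPM unit: fragments per gene scaled to the same total in each lane. Per the submitters' processing notes the tools were fastp 0.20.0, kallisto 0.46.2 and DESeq2. No source used here gives the build, annotation or strand setting. Gene IDs standing on more than 1 line (143) were used once, and lanes were averaged per library. No difference between the lanes of a library passed a chi-square test for any member (smallest adjusted p 0.81). Whole reads were recovered for 100% of values within 0.01 read, and 3 reads are worth 0.175 to 0.212 FPM.

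Limma 3.58.1 (R 4.3.3) with an intensity trend was fitted to log2(FPM + 0.5) of all 8 libraries, with 4 residual and 7.2 prior degrees of freedom, over 15827 genes whose mean of group means was at least 0.5 FPM. Benjamini-Hochberg adjustment covered all of them. edgeR 4.0.16 and DESeq2 1.42.0 on recovered reads were alternatives, beside other pseudocounts, filters and scaling, robust shrinkage, the replicate block and leaving out each library. The steps were tested on simulated data. Intervals of single libraries are 95% Wilson intervals.

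The 8 members and the lists were chosen with earlier results of these data known. All 8 members are named. Of each list up to 3 called genes of at least 2 FPM are named per comparison, smallest p first, and the pathway's defining genes whether called or not. CRADD is named beside PIDD1 in addition to this rule. Some genes of the lists that this rule names are not reported here, and counts over the lists include them.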

Additional observations from a re-analysis of the deposited data

How the results depend on the processing

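Over the alternatives run, 701 values of the 8 genes kept their direction and side of the threshold, 11 became called, 4 lost their call and 12 changed sign, all 12 near 0 and uncalled. For pathway genes and neighbours these counts were 987, 6, 53 and 6. Where a comparison does not use the library left out, its fold changes stayed the same, and only the spread and the adjustment in the test changed. The cause of the other changes was not tested.

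DESeq2 called 2013 genes with Cfz (3948 in limma), 3118 in ATRA+Cfz against Cfz (4818) and 2886 against ATRA (4884). Leaving out 1 library gave 6678 to 8226 genes with ATRA, 3319 to 5442 with Cfz, 7440 to 8788 in ATRA+Cfz against DMSO, 4297 to 6275 against Cfz, 3903 to 6389 against ATRA and 2 to 1985 in the interaction. Of the 8 genes it gave 6 to 7, 4 to 6, 8, 5 to 7, 4 to 5 and 0. The highest counts over all genes were those without DMSO 3.

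Same-numbered DMSO and ATRA libraries did not deviate together (correlations -0.0058, -0.0021 and 0.0055), and not every library correlated best with its own number. The check thus gave no sign that the numbers pair them. It cannot show that same-numbered libraries were handled apart. The replicate block gave 241 interaction calls against 364 and called CASP9 lower with Cfz (adjusted p = 0.045).

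The sign changed for TNFRSF10A with ATRA (0.0019 with median-ratio scaling, 0.00029 with DESeq2), TNFRSF10B with Cfz (0.028 with median-ratio scaling, 0.0033 in edgeR, 0.024 in DESeq2), CASP8 in the interaction (-0.023 under the first and the last of these) and CYCS with ATRA (0.012, 0.0036 and 0.011). Leaving out 1 library gave -0.099 to 0.032 for TNFRSF10B with Cfz, -0.0073 to 0.038 for XIAP in ATRA+Cfz against ATRA, -0.025 to 0.023 for CASP8 in the interaction, -0.052 to 0.0016 for CYCS with ATRA and -0.015 to 0.065 for DIABLO with ATRA. CASP9 has the least depth, 119 to 284 reads per library.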
